A study of Mus musculus with 6 samples.

Results

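Homeostatic astrocyte genes were examined in the mouse hippocampus after delivery of an shRNA against L-DL, the long isoform of the RNA binding protein hnRNP DL. The 10 genes were Slc1a2, Slc1a3, Glul, Gja1, Gjb6, Aqp4, Slc4a4, Aldoc, Aldh1l1 and Sox9. They were chosen by name as genes of the resting astrocyte, with earlier results of these data known. Symbols were matched to Ensembl identifiers, and all 10 genes were found among the 52550 genes of the count table. Hippocampal RNA came from 3 control and 3 L-DL KD male C57BL/6 J mice. Per the study's methods, mice of this design received adeno-associated virus (AAV) in both CA1 areas at 8 weeks of age, carrying control shRNA or 4 L-DL shRNAs in tandem behind H1 promoters, with zsGreen under the CamkIIα promoter to show infected neurons. The H1 promoter is not specific to neurons. The study gives the control virus at a higher titre than the L-DL virus. By these methods, both groups carried a virus and differed in its titre as well as in the shRNA. The sample labels call the controls wild type, and they call the L-DL KD mice a knockout in one place and a knockdown in another.

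Reads counted on genes ranged from 16052529 to 16995425 in the controls and from 16525467 to 17913064 in L-DL KD. Levels are given as CPM, which are read counts relative to the effective size of the library after TMM scaling in edgeR. Hnrnpdl (ENSMUSG00000029328), the gene that encodes L-DL, had 176, 184 and 171 CPM in control replicates 1 to 3 and 217, 150 and 173 CPM in L-DL KD replicates 1 to 3. Its log2 fold change was 0.03 ± 0.12 (standard error) with an adjusted p of 0.898 in edgeR's quasi-likelihood test. The study assessed the knockdown by immunoblots of L-DL protein in injected hippocampus, which gene counts do not measure. No fall of the targeted gene was detectable in a count that covers all of its transcripts, and the groups overlapped. Directions below are therefore directions in the libraries labelled L-DL KD. Each library was taken as 1 mouse, and the sources used here do not say whether tissue was pooled.

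Astrocytes clear glutamate and potassium from the space around synapses, move water and bicarbonate, supply neurons with metabolites and are joined to each other by gap junctions. The genes listed here encode proteins of these tasks, and several of them are standard markers of astrocytes in the adult brain. Astrocytes that react to injury are known to raise genes for intermediate filaments and secreted proteins, while their homeostatic genes can change in either direction.

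The homeostatic genes did not move one way. Of the 10 genes, 2 were higher in the libraries labelled L-DL KD (Aqp4 and Sox9), 4 were lower (Gja1, Aldoc, Slc1a3 and Slc4a4) and 4 did not pass the test (Slc1a2, Glul, Gjb6 and Aldh1l1), at an adjusted p under 0.05. Among all 17621 genes tested, 30.5% passed, 15.6% in the higher and 15% in the lower direction. The libraries of the groups did not overlap in 6 of the 10 genes, which were the same 6 genes, and in 47.2% of all genes tested. The median log2 fold change of the 10 genes was -0.13. Their counts together made up 0.708%, 0.717% and 0.731% of the reads of control replicates 1 to 3 and 0.565%, 0.705% and 0.686% of the reads of L-DL KD replicates 1 to 3. In whole tissue, a change in the number of astrocytes and a change in RNA per astrocyte cannot be told apart.

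**Figure D1:**
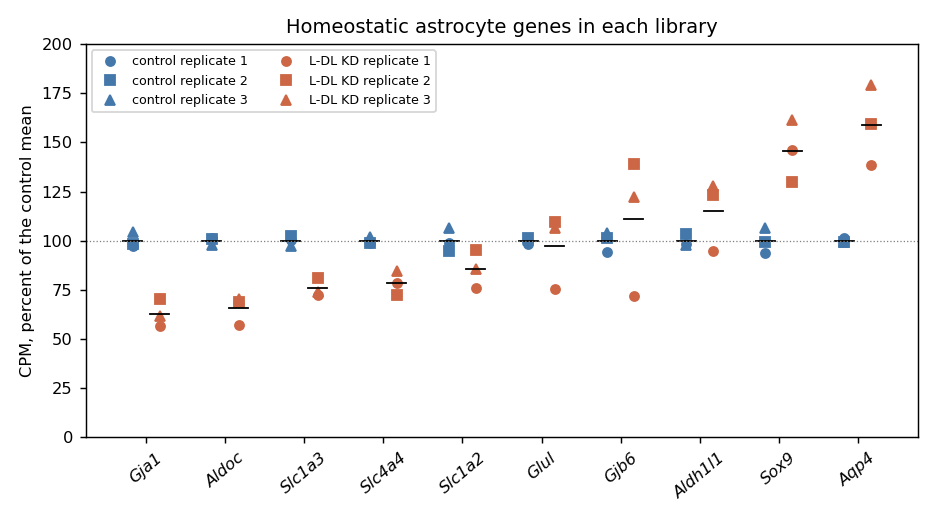
Level of each homeostatic astrocyte gene in each library, as CPM in percent of the control mean of that gene, with genes ordered by log2 fold change. Symbols are replicates and black lines are group means of 3 libraries. The controls lie close together for every gene, Gja1, Aldoc, Slc1a3 and Slc4a4 lie below them in all L-DL KD libraries, Sox9 and Aqp4 lie above, and L-DL KD replicate 1 lies apart for Glul and Gjb6.

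Glutamate uptake and its conversion to glutamine showed a fall of 1 of the 3 genes. Slc1a2 (GLT-1, the main glutamate transporter of the adult forebrain; ENSMUSG00000005089, chr2:102658659-102790784, plus strand) had 2827, 2702 and 3047 CPM in control replicates 1 to 3 and 2175, 2725 and 2453 CPM in L-DL KD replicates 1 to 3. One library labelled L-DL KD, replicate 2, lay within the range of the controls and the other 2 lay below it. The log2 fold change was -0.22 ± 0.10 (standard error), with an adjusted p of 0.127. Slc1a3 (GLAST, the second astrocytic glutamate transporter; ENSMUSG00000005360, chr15:8634124-8710764, minus strand) had 837, 857 and 812 CPM in the controls and 605, 675 and 617 CPM in L-DL KD. All L-DL KD libraries lay below all controls. Slc1a3 was 1.32-fold lower, with a log2 fold change of -0.40 ± 0.07 and an adjusted p of 0.00456. Glul (glutamine synthetase, which turns glutamate into glutamine; ENSMUSG00000026473, chr1:153899944-153909723, plus strand) had 1686, 1742 and 1719 CPM in the controls and 1298, 1882 and 1830 CPM in L-DL KD. Replicate 1 of L-DL KD lay below the controls and replicates 2 and 3 lay above them. Its log2 fold change was -0.04 ± 0.13 with an adjusted p of 0.857, and it was 0.12 with an adjusted p of 0.136 without L-DL KD replicate 1 (adjusted p from 0.136 to 0.973 over 12 alternatives). Exons of Slc1a2 share 189 nt with the antisense gene Gm13872, and exons of Glul share 116 nt with Teddm2 on the other strand and 93 nt with Mir8114. The sources used here do not say whether reads were counted by strand.

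The gap junction genes gave different values. Gja1 (connexin 43; ENSMUSG00000050953, chr10:56377330-56402513, plus strand) had 279, 281 and 298 CPM in the controls and 162, 201 and 176 CPM in L-DL KD. The groups lay apart, and the highest L-DL KD library was well under the lowest control. Gja1 fell by 0.67 ± 0.09 on the log2 scale, 1.59-fold, with an adjusted p of 0.0013, the largest fall of the 10 genes. Gjb6 (connexin 30; ENSMUSG00000040055, chr14:57123303-57133611, minus strand) had 85.4, 91.8 and 94.0 CPM in the controls and 64.8, 126 and 110 CPM in L-DL KD. L-DL KD replicate 1 was under every control and the other 2 libraries were over every control. The log2 fold change of Gjb6 was 0.15 ± 0.21 with an adjusted p of 0.629. Without L-DL KD replicate 1, it was 0.39 with an adjusted p of 0.00568, and without L-DL KD replicate 2 it was -0.04 (adjusted p from 0.00568 to 0.922 over 12 alternatives). The ratio of Gjb6 to Gja1, in CPM within each library, was 0.306, 0.327 and 0.316 in the controls and 0.401, 0.625 and 0.628 in L-DL KD. It was higher in 3 of 3 libraries labelled L-DL KD than in all controls, with a two-sided exact permutation p of 0.1, the smallest that 3 against 3 libraries can give (0.2 after Benjamini-Hochberg adjustment over 4 ratios, all chosen after values were seen).

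Of the genes for water and bicarbonate, 1 was higher and 1 lower. Aqp4 (aquaporin-4, the water channel of astrocyte endfeet; ENSMUSG00000024411, chr18:15389496-15410982, minus strand) had 375, 366 and 367 CPM in the controls and 512, 588 and 661 CPM in L-DL KD. All L-DL KD libraries lay above all controls, and Aqp4 was 1.59-fold higher, with a log2 fold change of 0.67 ± 0.10 and an adjusted p of 0.00175. Slc4a4 (NBCe1, an electrogenic sodium bicarbonate cotransporter; ENSMUSG00000060961, chr5:88886818-89239653, plus strand) had 200, 200 and 207 CPM in the controls and 159, 146 and 171 CPM in L-DL KD. These groups did not overlap either. Slc4a4 was 1.28-fold lower, with a log2 fold change of -0.35 ± 0.07 and an adjusted p of 0.00894. Kcnj10 (Kir4.1, the inward rectifier potassium channel that lies in endfeet with aquaporin-4) had 305, 293 and 307 CPM in the controls and 255, 268 and 263 CPM in L-DL KD. The ratio of Aqp4 to Kcnj10 was accordingly 1.22 ± 0.03 in the controls and 2.24 ± 0.26 in L-DL KD (SD, n = 3 in each group), with an exact permutation p of 0.1 (0.2 after adjustment).

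Among the metabolic genes, Aldoc (aldolase C, a glycolytic enzyme and astrocyte marker; ENSMUSG00000017390, chr11:78322968-78327781, plus strand) had 816, 812 and 784 CPM in the controls and 460, 554 and 566 CPM in L-DL KD. Each L-DL KD library was under each control. Aldoc was 1.53-fold lower, with a log2 fold change of -0.61 ± 0.09 and an adjusted p of 0.00205. Aldh1l1 (a folate enzyme that converts formyltetrahydrofolate, widely used as a marker of astrocytes; ENSMUSG00000030088, chr6:90486427-90600203, plus strand) had 66.5, 70.0 and 66.2 CPM in the controls and 64.1, 83.4 and 86.2 CPM in L-DL KD. Replicate 1 of L-DL KD lay just below the controls and the other 2 libraries lay above them. The log2 fold change was 0.21 ± 0.11 with an adjusted p of 0.206, and 0.33 with an adjusted p of 0.00546 without L-DL KD replicate 1 (adjusted p from 0.00546 to 0.445 over 12 alternatives). Exons of Aldh1l1 share 499 nt with the antisense gene Gm15756 and 105 nt with Gm45901.

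Sox9 (a transcription factor of glial specification that adult astrocytes keep; ENSMUSG00000000567, chr11:112782224-112787760, plus strand) had 48.3, 51.2 and 54.7 CPM in the controls and 75.1, 66.8 and 82.9 CPM in L-DL KD. The groups lay apart. Sox9 was 1.46-fold higher, with a log2 fold change of 0.54 ± 0.09 and an adjusted p of 0.00425.

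L-DL KD replicate 1 was the lowest of the 3 L-DL KD libraries in 8 of the 10 genes, all but Sox9 and Slc4a4, and the lowest of all 6 libraries in 7. The coefficient of variation was larger in L-DL KD than in the controls for 10 of 10 genes, with a median of 11.2% (5.89 to 31.6%) against 2.88% (1.36 to 6.25%). Without L-DL KD replicate 1, 4 of the 10 genes were higher and 4 were lower, with Gjb6 and Aldh1l1 added to the higher ones, and 18.8% of all genes tested passed in each direction. This library also had the highest level of ependymal and choroid plexus genes, which are not astrocytic. Transthyretin (Ttr) had 1520, 372 and 4183 CPM in the controls and 4689, 93.8 and 13.9 CPM in L-DL KD, and none of the 8 listed genes of these cells passed the test with all 6 libraries, against 5 lower without L-DL KD replicate 1 and 1 higher (Foxj1, a ciliary regulator) without L-DL KD replicate 3, with no filter or with DESeq2. Control replicate 3, which also had much Ttr, had the highest summed level of the 10 astrocyte genes, 7449 CPM, and L-DL KD replicate 1 had the lowest, 5575 CPM.

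**Figure D2:**
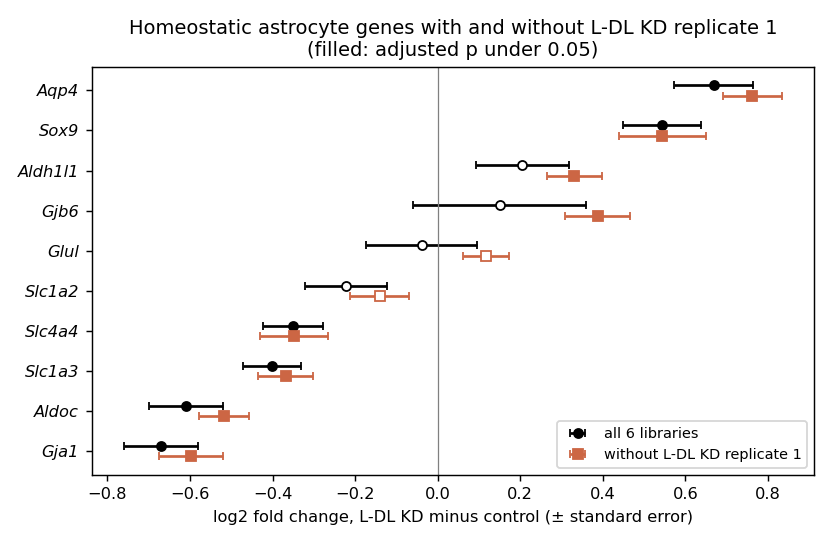
Log2 fold change of each homeostatic astrocyte gene, L-DL KD minus control, with its standard error, from all 6 libraries (black) and without L-DL KD replicate 1 (orange). Filled symbols have an adjusted p under 0.05. Aqp4, Sox9, Slc4a4, Slc1a3, Aldoc and Gja1 are filled in both, and Aldh1l1 and Gjb6 only without that library.

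To compare levels between genes, CPM were divided by the length of all exons of a gene in kb. Glul had the highest level per length in the controls, 516 ± 8.5 CPM per kb (SD, n = 3), followed by Aldoc with 246 ± 5.25 and Slc1a2 with 218 ± 13.3 CPM per kb. Slc1a3 with 97.9 ± 2.61, Aqp4 with 59.2 ± 0.805 and Gjb6 with 33.8 ± 1.68 CPM per kb came next, and Gja1 with 27.8 ± 1.05, Slc4a4 with 18.7 ± 0.332, Aldh1l1 with 14.96 ± 0.464 and Sox9 with 12.4 ± 0.777 CPM per kb were the lowest. All neighbours in this order lay apart in the 3 controls. In L-DL KD, Glul stayed first with 503 ± 97.2 CPM per kb, Slc1a2 (187 ± 20.96 CPM per kb) stood over Aldoc (162 ± 17.8 CPM per kb) and Aqp4 (94.2 ± 11.96 CPM per kb) over Slc1a3 (74.1 ± 4.36 CPM per kb). Gjb6 had 37.5 ± 11.8 CPM per kb there. Sox9 (18.1 ± 1.95 CPM per kb), Gja1 (17.5 ± 1.94 CPM per kb), Aldh1l1 (17.2 ± 2.66 CPM per kb) and Slc4a4 (14.7 ± 1.14 CPM per kb) followed. The libraries of neighbours overlapped between Slc1a2 and Aldoc and among these last 4 genes. Aqp4 and Slc1a3 lay apart in both groups, in opposite order.

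**Figure D3:**
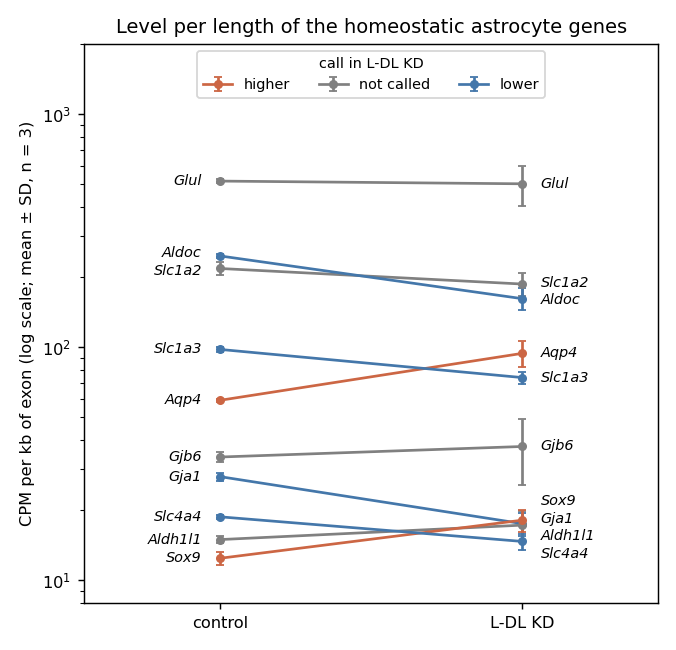
Level per length of the 10 homeostatic astrocyte genes in both groups, as CPM per kb of exon on a log axis, mean ± SD of 3 libraries. Line colours give the call in L-DL KD. The lines of Aqp4 and Slc1a3 cross, as do those of Aldoc and Slc1a2, and the 4 lowest genes of L-DL KD lie between 14.7 and 18.1 CPM per kb.

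The regions upstream of the starts of Gja1 and Slc1a3, which were both lower, are shown to set their sequences side by side. They are the 250 bases before the RefSeq transcript start in GRCm38.p6, chr10:56377050-56377299 on the plus strand and chr15:8710808-8711057 on the minus strand, each written 5′ to 3′ along the gene. Capitals mark matches to TTGGC, the half-site of nuclear factor I, or to ACAAT, a core bound by SOX factors, on either strand.
Gja1: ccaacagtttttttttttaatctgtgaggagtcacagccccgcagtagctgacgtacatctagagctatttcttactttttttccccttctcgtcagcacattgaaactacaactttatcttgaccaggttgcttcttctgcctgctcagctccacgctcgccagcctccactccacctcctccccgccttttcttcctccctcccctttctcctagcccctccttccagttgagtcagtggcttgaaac
Slc1a3: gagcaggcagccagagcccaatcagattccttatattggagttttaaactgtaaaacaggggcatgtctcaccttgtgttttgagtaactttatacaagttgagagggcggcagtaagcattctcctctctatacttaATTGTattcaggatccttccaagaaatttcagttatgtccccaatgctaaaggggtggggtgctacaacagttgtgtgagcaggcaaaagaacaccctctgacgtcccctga
No match to either word lay in the Gja1 window, and the Slc1a3 window held 1 match to ACAAT on the other strand (ATTGT). RefSeq entries of 8 of the 10 genes were used and gave 10 such windows, those of Slc4a4 and Aldoc 2 each. No window was used for the 2 genes that were higher. The counts of matches therefore cover only genes that were lower or did not pass the test. TTGGC lay in 5 of these 10 windows and in 41.5% of all 32851 windows of the same length. ACAAT lay in 2 of the 10 and in 27.7% of all windows. A match to 5 letters is a description of the sequence and no evidence that a factor binds there.

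Other genes of the same tasks moved in both directions as well. Over 6 further lists of astrocyte genes, 18 of 71 genes tested (72 listed) were higher, 14 were lower and 39 did not pass, with a median log2 fold change of 0.02, against 15.6% higher and 15% lower among all genes tested. These lists do not contain the 10 genes.

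Of the glutamate and amino acid genes, 4 of 12 were higher and 1 was lower (all genes tested: 15.6% and 15%). Slc6a11 (GAT-3, the GABA transporter of astrocytes) had 125, 119 and 117 CPM in the controls and 48.9, 45.6 and 51.4 CPM in L-DL KD. These groups lay far apart, with a log2 fold change of -1.31 ± 0.07 and an adjusted p of 8.1e-05. Slc38a5, a glutamine transporter, rose by 0.74 ± 0.24 on the log2 scale from a low level (5.12 to 6.16 CPM in the controls, 7.63 to 13.003 CPM in L-DL KD; adjusted p = 0.0462). Slc1a4, a transporter of serine and other neutral amino acids, rose by 0.69 ± 0.10 on the log2 scale and Slc38a3, which exports glutamine from astrocytes, by 0.62 ± 0.12. The call of Slc38a5 was lost with the replicate block, with limma-voom and without any 1 of the controls or L-DL KD replicate 1 (adjusted p from 0.0601 to 0.142). The lower count was 3 without L-DL KD replicate 1, and it was 2 without L-DL KD replicate 2, with either other filter, the replicate block, limma-voom or DESeq2, where Prodh, which breaks down proline, passed as well (adjusted p = 0.0526 in the test reported).

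Of the genes for potassium, water and pH, 2 of 12 were higher and 2 were lower, each close to the share of all genes tested (15.6% and 15%). The potassium channel genes Kcnj10, with a log2 fold change of -0.20 ± 0.06 (adjusted p = 0.0343), and Kcnj16, with -0.84 ± 0.19 (adjusted p = 0.0121), were lower. Atp1b2, a subunit of the sodium pump, had 742, 798 and 711 CPM in the controls and 1026, 1288 and 1124 CPM in L-DL KD and was higher, by 0.61 ± 0.10 on the log2 scale. Hepacam, an adhesion protein of astrocytes, was higher by 0.51 ± 0.10. The call of Kcnj10 was lost with scaling by library size, with no filter, with the replicate block and without any 1 library other than L-DL KD replicate 1 (adjusted p from 0.0528 to 0.11), and that of Kcnj16 without control replicate 3 (adjusted p = 0.0515). The list thus had 0 lower genes without control replicate 3 and 3 without L-DL KD replicate 1.

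Among the other gap junction genes, 1 of 7 tested passed, against 30.5% of all genes tested. Gjb1 (connexin 32, which oligodendrocytes express) was higher, with a log2 fold change of 0.78 ± 0.14 and an adjusted p of 0.00503. Gjb2 (connexin 26, found in astrocytes and meninges) had 11.2, 8.41 and 10.03 CPM in the controls and 14.3, 10.5 and 16.8 CPM in L-DL KD, with a log2 fold change of 0.49 ± 0.20 and an adjusted p of 0.0993. The groups overlapped for Gjb2. The higher count of the list was 3 without L-DL KD replicate 3 and 2 without L-DL KD replicate 2, with scaling by library size, with no filter and with DESeq2.

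Of the metabolic genes, 5 of 12 were higher and 2 were lower (all genes tested: 15.6% and 15%). Pla2g7, a phospholipase that degrades platelet-activating factor, had 131, 120 and 121 CPM in the controls and 286, 333 and 292 CPM in L-DL KD, and the groups lay far apart (log2 fold change 1.29 ± 0.08). Slc16a1 (MCT1, a carrier of lactate) had 58.4, 57.4 and 55.4 CPM in the controls and 134, 124 and 136 CPM in L-DL KD, with a log2 fold change of 1.20 ± 0.07. The detoxifying enzyme gene Mgst1 was higher by 0.84 ± 0.14 on the log2 scale and Cbs, which makes cystathionine, by 0.66 ± 0.12. The lower count was 3 without L-DL KD replicate 1, and it was 1 without any of the other libraries, with scaling by library size, with no filter and with the replicate block.

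Of the transcription factor genes, 4 of 12 were higher and 3 were lower (all genes tested: 15.6% and 15%). Id3, an inhibitor of basic helix-loop-helix factors, had 45.2, 43.1 and 44.2 CPM in the controls and 84.7, 73.7 and 99.6 CPM in L-DL KD, with a log2 fold change of 0.96 ± 0.11. Zbtb20 was higher by 0.58 ± 0.15, and Rorb, a nuclear receptor, was lower with a log2 fold change of -0.57 ± 0.16 (adjusted p = 0.028). Hes5, a target of Notch signalling, was lower too, but from at most 1.47 CPM in a control and with 0 counts in L-DL KD replicate 2, so that no size is given. The call of Zbtb20 was lost without control replicate 1 or 2 or L-DL KD replicate 2 (adjusted p from 0.0589 to 0.0823) and that of Rorb without control replicate 1 or 3 (adjusted p of 0.0743 and 0.1). Hes5 was lost with the replicate block and without L-DL KD replicate 3, and it was not tested without any 1 of the controls or with the stricter filter. The lower count was 1 without control replicate 1 or 3.

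Of the 16 other astrocyte markers, 2 were higher and 6 were lower (all genes tested: 15.6% and 15%). Gpc5, a glypican, had 25.1, 27.3 and 26.9 CPM in the controls and 11.9, 16.3 and 13.1 CPM in L-DL KD, a log2 fold change of -0.94 ± 0.14. S100b, a calcium binding protein of astrocytes, had a log2 fold change of -0.72 ± 0.12 and Ntsr2, a neurotensin receptor of astrocytes, of -0.68 ± 0.08, and the groups of both lay apart. Gpr37l1, a receptor of astrocytes, was higher with a log2 fold change of 0.43 ± 0.06 and an adjusted p of 0.0019. Without L-DL KD replicate 1, 6 of these markers were higher and 7 lower. The higher count was 1 without L-DL KD replicate 2 or any of the controls, and the lower count was 4 without control replicate 1 or 3.

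**Figure D4:**
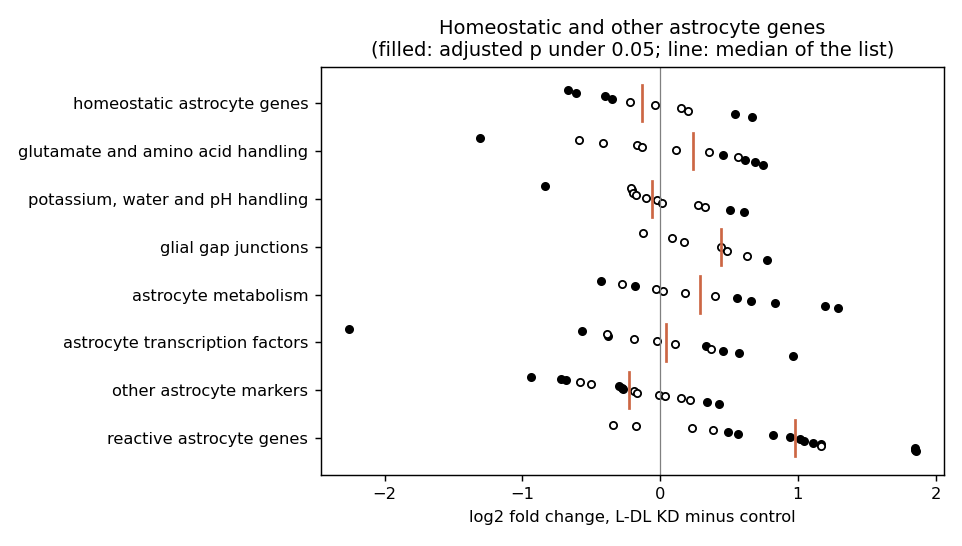
Log2 fold changes, L-DL KD minus control, of the tested genes of each astrocyte list, with each point 1 gene, filled points at an adjusted p under 0.05 and orange lines at the median of the list. The homeostatic genes and the 6 lists of astrocyte tasks and markers have points on both sides of 0, and the reactive astrocyte genes have a median of 0.98.

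Markers of other cell types differed between the groups beside these results. Among all genes tested, 15.6% were higher and 15% lower. Of 12 neuron markers, 10 were lower and 1 was higher, and their summed level ranged from 9742 to 10296 CPM in the controls and from 5894 to 6882 CPM in L-DL KD. Without control replicate 1, 6 of these markers were lower. All 12 microglia markers were higher, with summed levels from 1949 to 2456 CPM and from 3844 to 5002 CPM. Of 6 markers of oligodendrocyte precursors, 5 were higher (400 to 407 CPM against 509 to 648 CPM), and of 10 endothelial markers 4 were higher (331 to 358 CPM against 411 to 497 CPM). Of 10 oligodendrocyte markers, 1 was higher and 1 lower, with summed levels from 8287 to 8875 CPM and from 7047 to 10388 CPM. In that list, 4 were higher without L-DL KD replicate 3, 2 were lower without L-DL KD replicate 1 and 0 were lower without control replicate 2 or 3 or L-DL KD replicate 2. The 8 ependymal and choroid markers summed to 481 to 4656 CPM in the controls and 73.3 to 5261 CPM in L-DL KD. No marker of these lists was at 0 in a library, and the part of other cell types in the changes of the astrocyte genes was not tested.

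The mean profile of the 10 genes over the 6 libraries, with each gene's log2 CPM centred on its own mean, was 0.02, 0.04 and 0.06 in the controls and -0.23, 0.05 and 0.06 in L-DL KD. It thus set L-DL KD replicate 1 against the 5 other libraries. The genes most like it, of 11009 compared, were Hif3a (Pearson r = 0.997), Zbtb16 (0.997), Usp53 (0.995), Ptpn23 (0.992) and Cables1 (0.992). These correlations are over 6 libraries, in which 1 library carries most of the profile, and are given as a description.

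Splicing was described by PSI, the share of transcripts that include a segment, from the reads across its junctions in each library. The deposited table listed 15 events in 7 of the 10 genes and none in Glul, Gja1 or Sox9. Of these, 6 events, in Slc1a2, Slc4a4 and Aldoc, averaged 20 or more counts in a library, with 1 or more of each form, and were tested. None passed an adjusted p under 0.05 in edgeR's quasi-likelihood test, nor in limma, against 0.255% of all 18829 events tested with edgeR. At an unadjusted p under 0.05, 1 of the 6 passed in edgeR and 1 in limma, against 13.3% of all events in edgeR. Groups lay apart in the same 1 event, against 18.4% of all events.

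This event was a 234 nt exon of Slc1a2 (chr2:102755907-102756140). It was included in all reads of the 3 controls, and its PSI was 0.997, 0.999 and 0.991 in L-DL KD. The difference rested on 2, 1 and 5 reads that skipped the exon, beside 1188, 1740 and 1164 that included it, and the controls had 0 such reads beside 1203, 1102 and 1189. The PSI change was -0.0043, with an unadjusted p of 0.0255 and an adjusted p of 0.315. The 200 nt exon of Aldoc (chr11:78325935-78326134) had a mean PSI of 0.998 in the controls and 0.996 in L-DL KD, with an adjusted p of 0.555.

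Slc4a4 was the gene whose transcripts held both forms in quantity, and its 2 alternative segments are shown because they make the coding variants that were measured here. The first is a 27 nt segment at an alternative 5′ splice site (chr5:89046366-89046392, plus strand) in exon 3 of the GENCODE transcript Slc4a4-203. It keeps the reading frame, and 3 coding transcripts hold it and 2 lack it. The second is a 97 nt exon (chr5:89232764-89232860, plus strand), exon 24 of Slc4a4-202, which shifts the frame near the carboxy terminus and lies in 3 coding transcripts, while 1 skips it. Capitals mark the segment, and the 15 bases on each side belong to the flanking parts of the spliced transcript.
Slc4a4 27 nt segment: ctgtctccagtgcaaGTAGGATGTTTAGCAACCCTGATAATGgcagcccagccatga
Slc4a4 97 nt exon: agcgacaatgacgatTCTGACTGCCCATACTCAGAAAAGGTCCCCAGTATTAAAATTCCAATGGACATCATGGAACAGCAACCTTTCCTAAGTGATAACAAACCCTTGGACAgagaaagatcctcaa

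The PSI of the 27 nt segment was 0.856, 0.841 and 0.905 in the controls and 0.933, 0.867 and 0.966 in L-DL KD, from 61 to 69 counts per library. The groups overlapped, and the change of 0.054 had an adjusted p of 0.667. The PSI of the 97 nt exon was 0.476, 0.312 and 0.345 in the controls and 0.432, 0.571 and 0.426 in L-DL KD, from 135 to 157 counts per library. The highest control lay among the L-DL KD libraries. The mean PSI was 0.377 ± 0.087 in the controls and 0.476 ± 0.082 in L-DL KD (SD, n = 3 in each group), with an adjusted p of 0.612. A change of this exon was therefore not detectable at this depth and spread.

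**Figure D5:**
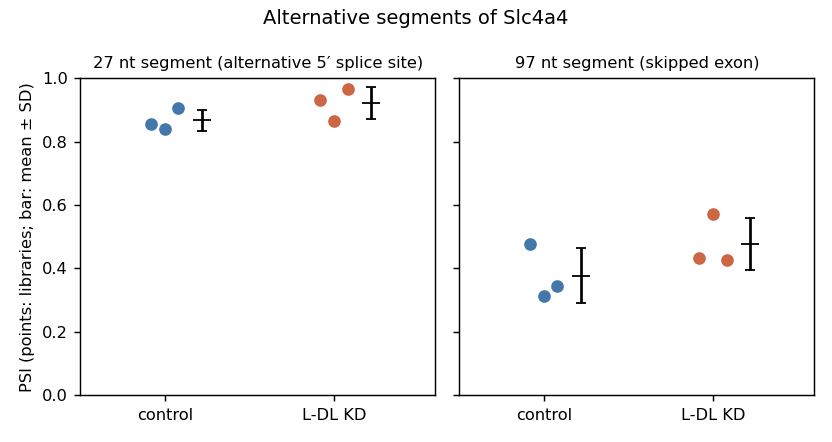
PSI of the 27 nt segment and the 97 nt exon of Slc4a4 in each library, with the mean ± SD of 3 libraries per group beside the points. The 27 nt segment lies between 0.841 and 0.966 and the 97 nt exon between 0.312 and 0.571, and the groups overlap in both.

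The other tested events of Slc1a2, a 149 nt segment (chr2:102686121-102686269) and a 71 nt segment (chr2:102780717-102780787), were both skipped in nearly all reads. Their mean PSI was 0.011 and 0.0052 in the controls and 0.013 and 0.0022 in L-DL KD, with adjusted p-values of 0.866 and 0.44. Of the 9 events that were not tested, 7 had a mean PSI over 0.95 in the controls, and these lay in Aldh1l1, Gjb6, Slc1a3 and Aqp4.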

How the data were processed

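Hippocampal RNA of 3 control and 3 L-DL KD mice was sequenced as read pairs after oligo(dT) enrichment. The deposited gene table holds raw counts of reads for each Ensembl gene, which the authors did not normalize. The deposited splicing table holds the authors' junction counts of the inclusion and skipping form of each rMATS event with effective lengths, PSI, p-values and FDR. The submitters' processing notes name HISAT2 (2.1.0), Bowtie (1.1.2), HTSeq (0.6.1) and mm10, with no role given. The authors' PSI, p-values and FDR were not used. PSI was computed as inclusion counts over effective length, divided by the sum for both forms. All 40961 events listed PSI differences as first minus second sample within 0.0021. The first sample was read as L-DL KD because the study defines its difference as L-DL KD minus control. The splicing table does not number its replicates.

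Genes that reached 10 counts in 3 or more libraries were tested with edgeR (4.0.16) quasi-likelihood tests after TMM scaling, with Benjamini-Hochberg adjustment over all genes tested. Events were tested with edgeR on 12 columns with an effect for each library. R (4.3.3), limma (3.58.1), DESeq2 (1.42.0), Python (3.11.15) and pandas (2.3.3) were used. Both tests were tested on simulated data. Exon lengths and transcripts came from GENCODE for GRCm38. Upstream windows of Aqp4 and Sox9 were not used. The p-values measure the spread between libraries. No 2 libraries of a group agreed within sampling noise (chi-square per degree of freedom from 7.1 to 33.3), so none was counted as a copy. Ratios were compared by exact permutation tests.

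The 10 genes, the gene lists and the tests were chosen with earlier results of these data known. Named genes were the 10 genes and Hnrnpdl, the at most 4 genes of each further list with the largest log2 fold change at an adjusted p under 0.05, and Kcnj10, Gjb2 and Gfap. Named events were those with an unadjusted p under 0.05 and otherwise the event of each gene with the smallest p. The other tested events, the ratios, Ttr, Foxj1, Prodh, Vim and Cd44 were added after values were seen. Alternatives were other scaling, filters, tools, the replicate number as a block, and fits without 1 library.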

Additional observations from a re-analysis of the deposited data

How the results depend on the processing

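The 6 calls among the homeostatic genes held under each of 12 alternatives, with 2 higher and 4 lower genes, except that 4 were higher without L-DL KD replicate 1, so that leaving out 1 library gave 2 to 4 higher genes and 4 lower genes each time. Without that library Glul changed sign to 0.12 (-0.12 to 0.12 with 1 library left out), Gjb6 passed with 0.39 and Aldh1l1 with 0.33, and Hnrnpdl changed sign to -0.13. Gjb6 changed sign to -0.036 without L-DL KD replicate 2 (-0.036 to 0.39 with 1 library left out) and Hnrnpdl to -0.00081 without control replicate 3 (-0.13 to 0.15 with 1 library left out). None of these reversed values passed the test, and the cause was not tested. Over all genes, 2743 were higher and 2636 lower, and leaving out 1 library gave 1770 to 3236 higher and 1676 to 3241 lower genes. Higher genes numbered 1795 and 1770 without control replicates 2 and 3, and lower genes 1676, 1746 and 1728 without control replicates 1 to 3. Scaling by library size gave 3052 higher and 2392 lower genes and moved the median of all genes by 0.032. Replicate numbers gave no clear sign of pairing: deviations of same-numbered libraries correlated at 0.063, 0.157 and -0.14, and those of differently numbered ones at -0.224 to 0.162. Deviations were centred within each small group, so this comparison cannot exclude pairing. The replicate block gave 2311 higher and 2324 lower genes and no other call among the 10. Over all splicing events, 48 passed, against 0 with limma and 0 to 52 with 1 library left out (0, 3 and 5 without a control), and events of the 10 genes at an unadjusted p under 0.05 numbered 0 to 2. No event of these genes passed an adjusted p under 0.05 under any alternative run. The Slc1a2 exon had a PSI change of -0.0022 without effective lengths and was not tested without the third L-DL KD value, because too few skipping reads were left. Junction counts of 61 to 157 per library limit the Slc4a4 segments.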

Other observations

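Genes of reactive astrocytes are a list of their own, and 11 of its 16 genes were higher in the libraries labelled L-DL KD and 0 were lower, with a median log2 fold change of 0.98. Among all genes tested, 15.6% were higher. Gfap, the intermediate filament gene by which reactive astrocytes are usually found, had 2661, 2879 and 2441 CPM in the controls and 2109, 2356 and 2602 CPM in L-DL KD. The groups overlapped, and the log2 fold change of Gfap was -0.18 ± 0.10 with an adjusted p of 0.228 in edgeR's test. Vim (vimentin), another intermediate filament gene, had 431, 427 and 353 CPM in the controls and 700.0, 732 and 703 CPM in L-DL KD. Those groups lay apart, with a log2 fold change of 0.82 ± 0.09 and an adjusted p of 5.83e-04. Timp1, an inhibitor of metalloproteinases, Emp1, a membrane protein, and Lcn2, a secreted lipocalin, had log2 fold changes of 1.86 ± 0.34, 1.85 ± 0.23 and 1.85 ± 0.30. Lcn2 had 23.9, 17.8 and 8.57 CPM in the controls and 66.8, 53.2 and 61.8 CPM in L-DL KD. Tgm1, a transglutaminase, was higher by 1.17 ± 0.36 (adjusted p = 0.0402). The call of Tgm1 was lost with the replicate block, with limma-voom and without any 1 library other than L-DL KD replicate 1 (adjusted p from 0.0519 to 0.109). Vim and Cd44 are also expressed by other cell types, and markers of microglia and endothelium were higher in the same libraries, whose part in these values was not tested. Leaving out 1 library at a time gave 8 to 12 higher genes in this list.

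The ratio of Slc1a2 to Slc1a3 in CPM was 3.43 ± 0.30 in the controls and 3.87 ± 0.24 in L-DL KD (SD, n = 3 in each group), with an exact permutation p of 0.2 (0.2 after adjustment over 4 ratios). The ratio of Glul to Slc1a2 was 0.602 ± 0.041 in the controls and 0.678 ± 0.075 in L-DL KD (SD, n = 3 in each group), with an exact permutation p of 0.2 (0.2 after adjustment). Each of the 4 ratios kept its direction with any 1 library left out.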
